A study of Homo sapiens with 6 samples.

Results

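The carcinoembryonic antigen-related cell adhesion molecules CEACAM1, CEACAM5, CEACAM6 and CEACAM7 were examined in HT29 cells, a human line from a colorectal adenocarcinoma, deprived of either histidine or tryptophan. These 4 genes, of 60676 genes listed in the deposited tables, were found by symbol in GENCODE release 44. They were chosen by name with their changes after both depletions already known, so their levels and changes are given as a description with no test. Wild-type HT29 cells were kept for 48 h in control medium (untreated), in histidine-depleted medium or in tryptophan-depleted medium, and 2 libraries were made for each condition. Dialyzed serum was added to both depleted media, of which the one lacking histidine was prepared from RPMI and the one lacking tryptophan from DMEM F-12. For the sequenced control cells the base medium is not given in the sources used here, so removal of the amino acid and the change of base medium cannot be told apart. The sources do not say whether the 2 libraries of a condition came from separate cultures, so the tests below measure the spread between these libraries only.

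CEACAM proteins are members of the immunoglobulin superfamily that carry an N-terminal variable-type domain, through which they bind each other on the same or neighbouring cells and through which several bacteria attach to mucosal surfaces. CEACAM1 spans the membrane and, in its long isoform, carries cytoplasmic tyrosine motifs that recruit the phosphatases SHP-1 and SHP-2, whereas CEACAM5 (carcinoembryonic antigen, the serum marker of colorectal cancer), CEACAM6 and CEACAM7 are held at the apical surface by a glycosylphosphatidylinositol (GPI) anchor. In the normal colon these genes are expressed by mature cells of the upper crypt and surface, and CEACAM5 and CEACAM6 are often raised in colorectal tumors while CEACAM7 is often reduced.

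Reads counted on genes, recovered from the deposited normalized counts, summed to 46390819 to 64388876 per library. These sums are above the average number of paired reads per sample stated in the paper, for a reason not given in the sources used here. All levels below are normalized counts on 1 scale common to the 6 libraries, and fold changes are differences of log2(normalized count + 1) with their standard error (SE). All 9 epithelial markers had a mean of at least 10, including EPCAM at 26653 in the first untreated library, which fits the labelled colon adenocarcinoma. As this was bulk RNA, fewer cells carrying a transcript and less transcript per cell cannot be told apart.

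CEACAM1 was the highest CEACAM transcript of untreated cells and was lower after both depletions. Untreated cells had 7397 and 7303 normalized counts, compared with 1665 and 1921 without histidine and 5462 and 5412 without tryptophan. The histidine-depleted libraries were lowest and the tryptophan-depleted ones between. The means were 7350.0 ± 67.1, 1793 ± 181 and 5437 ± 36.0 (SD, n = 2 each). The log2 fold change was -2.03 (SE 0.0584) after histidine depletion, which is a 4.08-fold lower level, and -0.44 (SE 0.0465) after tryptophan depletion, a 1.36-fold lower level. Between the depletions, CEACAM1 was lower without histidine by a log2 fold change of -1.60 (SE 0.0535). The gene lies on the minus strand of chromosome 19, at chr19:42507304-42561234 in GRCh38 (ENSG00000079385). LIPE-AS1, a long noncoding RNA on the opposite strand, overlaps its exons over 3.35% of their length, and that gene had 17 to 41 reads per library against 1843 or more for CEACAM1.

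CEACAM5, the carcinoembryonic antigen gene, had the widest span of the 4 genes. Untreated cells had 497.3 and 540.1 normalized counts, compared with 66.9 and 104.8 without histidine and 7952 and 7856 without tryptophan. Its level thus stood below untreated in both histidine-depleted libraries and above untreated in both tryptophan-depleted libraries. The means were 518.7 ± 30.2, 85.8 ± 26.8 and 7904 ± 67.6 (SD, n = 2 each). The log2 fold change was -2.61 (SE 0.151) after histidine depletion, 6.09-fold lower, and 3.92 (SE 0.0535) after tryptophan depletion, 15.1-fold higher. The direct comparison gave -6.54 (SE 0.130), so CEACAM5 was 93.3-fold lower without histidine than without tryptophan. Of 17960 genes tested after tryptophan depletion, 33 had a larger log2 fold change than CEACAM5, and of 18264 genes in the direct comparison 5 had a smaller one. CEACAM5 lies on the plus strand at chr19:41708585-41730433 (ENSG00000105388).

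CEACAM6, whose GPI-anchored product pairs with CEACAM5 and with itself, followed the same order of conditions over a narrower range. Its levels were 436.1 and 428.7 normalized counts in untreated cells, 138.2 and 140.4 without histidine, and 2319 and 2329 without tryptophan. Replicates of CEACAM6 lay close together. The means were 432.4 ± 5.25, 139.3 ± 1.54 and 2324 ± 6.89 (SD, n = 2 each). The log2 fold change was -1.62 (SE 0.109) after histidine depletion, 3.07-fold lower, and 2.42 (SE 0.0638) after tryptophan depletion, 5.34-fold higher. In the direct comparison it was 16.6-fold lower without histidine, a log2 fold change of -4.05 (SE 0.0718). CEACAM6 lies on the plus strand at chr19:41750977-41772211 (ENSG00000086548), next to CEACAM5.

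CEACAM7, a GPI-anchored molecule of the apical membrane of mature colonocytes, was close to the limit of detection. Untreated cells had 13 and 10 reads, cells without histidine 3 and 6, and cells without tryptophan 49 and 43, or 14.2 and 9.95, 2.71 and 6.10, and 52.3 and 39.4 normalized counts. The order of conditions was that of CEACAM5 and CEACAM6, but each value rests on few reads. The means were 12.1 ± 3.01, 4.41 ± 2.40 and 45.8 ± 9.13 (SD, n = 2 each). With a mean under 10 it did not pass the filter for the histidine comparison, where its unfiltered log2 fold change was -1.32 (SE 0.503). After tryptophan depletion the log2 fold change was 1.84 (SE 0.325), and in the direct comparison it was -3.18 (SE 0.405), or -2.12 when 8 rather than 1 was added before taking logs. CEACAM7 lies on the minus strand at chr19:41673303-41706976 (ENSG00000007306).

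**Figure D1:**
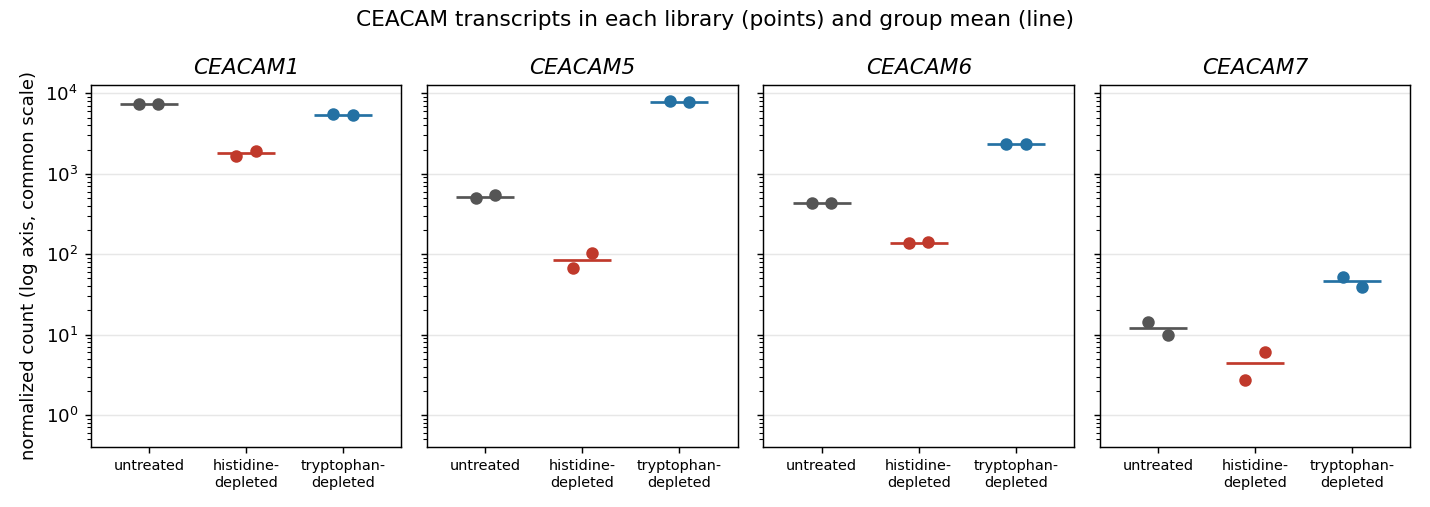
Normalized count of each CEACAM gene in each library (points, log axis, scale common to the 6 libraries) with the mean of the condition (line). CEACAM1 is at 7350.0 in untreated cells, 1793 without histidine and 5437 without tryptophan, whereas CEACAM5, CEACAM6 and CEACAM7 are lowest without histidine and highest without tryptophan.

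The 3 CEACAM genes that passed the filter had a log2 fold change below 0 after histidine depletion. After tryptophan depletion 3 of the 4 stood above 0 and 1 below, and in the direct comparison all 4 stood lower without histidine. These comparisons are the ones the genes were chosen on, and both depletions were set against the same untreated libraries, so nothing is read from these directions. As background for the gene lists that follow, limma at an adjusted p under 0.05 called 39.1% of 18288 genes higher and 38.2% lower after histidine depletion, and 36.1% of 17960 genes higher and 34.8% lower after tryptophan depletion. Between the depletions 38.7% of 18264 genes were higher and 38.0% lower without histidine.

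Levels were compared between the genes per kilobase of exon. In untreated cells CEACAM1 stood at 1330 ± 12.1 normalized counts per kilobase, CEACAM6 at 146.3 ± 1.78, CEACAM5 at 130.1 ± 7.59 and CEACAM7 at 4.55 ± 1.14 (SD, n = 2 each). The order was kept after histidine depletion, with 324.4 ± 32.7, 47.1 ± 0.521, 21.5 ± 6.73 and 1.66 ± 0.905. After tryptophan depletion CEACAM5 came first at 1983 ± 17.0, followed by CEACAM1 at 983.7 ± 6.51, CEACAM6 at 786.1 ± 2.33 and CEACAM7 at 17.3 ± 3.44. Neighbours in these orders did not overlap in any condition. The closest pair was CEACAM6 and CEACAM5 in untreated cells, with 147.5 and 145.0 against 124.8 and 135.5.

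The shares of the 4 genes in their own sum thus differed between conditions. CEACAM1 took 82.6% ± 0.371 of the summed level per kilobase of these 4 in untreated cells and 82.2% ± 0.222 after histidine depletion, but 26.1% ± 0.00255 after tryptophan depletion. CEACAM5 took 8.08% ± 0.508 in untreated cells, 5.40% ± 1.15 after histidine depletion and 52.6% ± 0.107 after tryptophan depletion. The share of CEACAM6 was 9.08% ± 0.0682, 12% ± 1.1 and 20.9% ± 0.198 in the same order, and CEACAM7 stayed under 1% throughout. The sum itself was 1611 ± 7.47 normalized counts per kilobase in untreated cells, 394.7 ± 40.9 without histidine and 3770.1 ± 24.6 without tryptophan (SD, n = 2 each). Histidine depletion therefore left the 4 genes at a lower summed level with CEACAM1 still the most abundant of them, whereas after tryptophan depletion the summed level was higher and GPI-anchored members made up most of it. The sum leaves out CEACAM19, which stood at 55.4 ± 0.0116 normalized counts per kilobase in untreated cells, 957.6 ± 22.7 without histidine and 350.4 ± 5.80 without tryptophan (SD, n = 2 each). Without histidine CEACAM19 was thus above the sum of the 4. Ranked among all protein-coding genes with reads by level per kilobase, CEACAM5 moved from rank 8313 of 15875 in untreated cells to 10880 of 16225 without histidine and 955 of 15873 without tryptophan. CEACAM6 moved from rank 8011 to 9858 and 2810, and CEACAM1 from 1556 to 5555 and 2216.

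**Figure D2:**
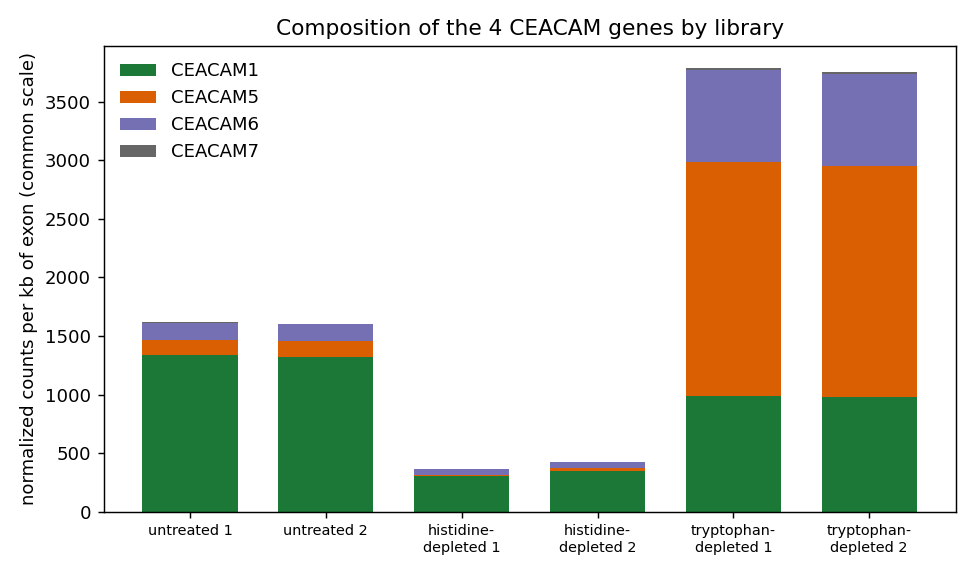
Normalized counts per kilobase of exon of the 4 CEACAM genes, stacked for each of the 6 libraries (bars from 0, common scale). CEACAM1 fills 82.6% of the untreated bars and 82.2% of the histidine-depleted ones, and CEACAM5 fills 52.6% of the tryptophan-depleted bars.

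Members of this family are close in sequence, which matters for counting. Over the first 420 coding bases, which include the signal peptide and most of the variable-type domain, CEACAM5 and CEACAM6 were 92.1% identical, CEACAM1 and CEACAM5 91.2%, and CEACAM1 and CEACAM6 91.0%. CEACAM7 was 82.0% identical to CEACAM5, 80.8% to CEACAM1 and 80.3% to CEACAM6. Windows of 150 bases, the length of a sequencing read, were taken from 1 transcript of each gene and compared with the annotated transcripts of all other genes. CEACAM1 and CEACAM7 had no window shared with another gene, CEACAM5 had 15 of 3352 and CEACAM6 had 1 of 2445. All shared windows were with ENSG00000267881, an annotated gene that overlaps 3.49% of the exonic bases of CEACAM5 and 4.67% of those of CEACAM6 on the same strand and is listed at 0 reads in every library. At this read length the 4 transcripts examined shared no window with each other, other transcripts of these genes were not examined, and how reads mapping to several places were treated is not given in the sources used here.

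CEACAM5, CEACAM6 and CEACAM7 lie within 100 kb of each other, and their promoters are also related, so the 250 bases before each start are shown. They were taken from RefSeq (GRCh38.p14), in which all 4 genes were matched, and run from 5′ to 3′ along the strand of the gene. Capitals mark matches to the motifs named below. The windows are chr19:42528482-42528731 (minus strand) for CEACAM1, chr19:41708376-41708625 (plus) for CEACAM5, chr19:41755280-41755529 (plus) for CEACAM6 and chr19:41688271-41688520 (minus) for CEACAM7. For all 4 the GENCODE gene begins upstream of this RefSeq start.
CEACAM1: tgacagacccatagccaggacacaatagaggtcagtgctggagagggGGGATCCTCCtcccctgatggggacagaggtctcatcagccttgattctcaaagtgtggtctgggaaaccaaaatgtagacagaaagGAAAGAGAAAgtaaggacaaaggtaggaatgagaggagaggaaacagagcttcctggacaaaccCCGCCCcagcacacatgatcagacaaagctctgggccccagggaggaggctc
CEACAM5: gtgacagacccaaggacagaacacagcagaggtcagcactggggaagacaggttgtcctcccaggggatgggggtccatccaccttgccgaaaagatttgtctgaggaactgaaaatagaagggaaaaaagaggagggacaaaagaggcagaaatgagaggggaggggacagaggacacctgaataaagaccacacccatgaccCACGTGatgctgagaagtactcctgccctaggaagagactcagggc
CEACAM6: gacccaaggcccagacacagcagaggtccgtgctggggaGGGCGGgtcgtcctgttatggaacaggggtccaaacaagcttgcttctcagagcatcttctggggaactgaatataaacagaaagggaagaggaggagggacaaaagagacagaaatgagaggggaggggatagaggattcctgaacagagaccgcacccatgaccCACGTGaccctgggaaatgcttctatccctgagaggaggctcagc
CEACAM7: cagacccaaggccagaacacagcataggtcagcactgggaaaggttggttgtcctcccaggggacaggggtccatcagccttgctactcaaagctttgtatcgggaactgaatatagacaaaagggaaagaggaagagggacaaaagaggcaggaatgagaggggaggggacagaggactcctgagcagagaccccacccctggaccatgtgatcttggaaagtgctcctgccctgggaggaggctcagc

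Aligned in pairs, the windows of CEACAM5 and CEACAM7 were 84.4% identical, those of CEACAM6 and CEACAM7 80.2% and those of CEACAM5 and CEACAM6 78.5%. The window of CEACAM1 was 72.0% to 75.8% identical to the others. The E-box CACGTG, a palindrome that upstream stimulatory factors (USF) bind, lay 46 to 41 bases before the start of CEACAM5 and 45 to 40 bases before that of CEACAM6. At the aligned place CEACAM7 read CATGTG and CEACAM1 read CACATG. The E-box was present in 6.34% of 35116 RefSeq promoter windows of this length. The GC box GGGCGG, a letter string bound by SP1, was found on the minus strand of CEACAM1 and on the plus strand of CEACAM6, as in 42.6% of all windows. Only CEACAM1, among the 4, had the interferon response core, 116 to 107 bases before the start (3.02% of all windows), and a kappa B match (9.96%). Neither the AP-1 site TGANTCA, the ATF4 and C/EBP composite TGATGNAA nor the CDX core CATAAA was in any of the 4 windows, against 6.57%, 3.14% and 9.64% of all. Both strands were searched, and none of the matches in the 4 windows overlapped another.

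The codons of the depleted amino acids were counted in each coding sequence. The annotated main coding sequence of CEACAM1 has 9 histidine and 8 tryptophan codons among 526, that of CEACAM5 12 and 13 among 702, that of CEACAM6 5 and 6 among 344, and that of CEACAM7 5 and 5 among 265. Histidine thus makes up 1.45% to 1.89% of codons, below the median of 2.43% over 19755 coding sequences. Tryptophan makes up 1.52% to 1.89%, above the median of 1.13%. The part of codon content in the transcript levels was not tested.

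Of 8 other CEACAM genes, CEACAM19, a transmembrane member of little known function, had the most reads. It had 286.4 and 286.5 normalized counts in untreated cells, 5037 and 4871 without histidine, and 1792 and 1834 without tryptophan. It rose after both depletions and most without histidine, where CEACAM1, CEACAM5 and CEACAM6 stood lowest. The log2 fold change was 4.12 (SE 0.0625, limma adjusted p = 9.3e-25) after histidine depletion and 2.65 (SE 0.0715, limma adjusted p = 1.6e-71) after tryptophan depletion. In the direct comparison CEACAM19 was higher without histidine by 1.45 (SE 0.0512, limma adjusted p = 4.3e-14). PVR, the poliovirus receptor gene, shares 2.34% of the exonic bases of CEACAM19 on the same strand and also rose, by 0.93 and 0.86. On the opposite strand, SIGLEC12 overlaps 3.93% of the exonic bases of CEACAM18 and had 32 to 76 reads, and CEACAM16-AS1 overlaps 1.59% of those of CEACAM16 and had 107 to 254 reads.

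CEACAM18 followed the order of CEACAM5 at a low level, with 74.3 and 59.7 normalized counts in untreated cells, 37.0 and 42.7 without histidine, and 115.2 and 117.2 without tryptophan. It rose by 0.79 after tryptophan depletion (SE 0.179, limma adjusted p = 4.6e-05). After histidine depletion it fell by 0.72 (SE 0.223, limma adjusted p = 0.0053), a call that was lost without the first untreated library (-0.57, adjusted p = 0.069) and with DESeq2 (-0.75, adjusted p = 0.069). Over 14 alternatives its adjusted p ranged from 0.0020 to 0.069. CEACAM16, known from the tectorial membrane of the inner ear, had 3 and 5 reads in untreated cells, 18 and 39 without histidine and 5 and 5 without tryptophan. After histidine depletion it stood higher by 2.40 (SE 0.465), or by 3.01 without the first and 1.78 without the second histidine-depleted library. With a pseudocount of 8 this value was 1.49. CEACAM16 passed the filter there only through its histidine-depleted libraries, so no test is read from it. Its low counts kept it out of the tryptophan comparison, where its unfiltered log2 fold change was 0.23.

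The remaining members of the family had few or no reads. CEACAM3, a phagocytic receptor of granulocytes, had 2 to 9 reads in each library. CEACAM20 had 0 to 4 reads and CEACAM21 had 1 read in all. CEACAM4 and CEACAM8, both granulocyte genes, were listed at 0 reads in every library. The pregnancy-specific glycoprotein genes, placental relatives that lie on the same chromosome, were likewise near 0, with 6 of 10 at 0 reads in every library and a summed level of at most 5.09 normalized counts.

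**Figure D3:**
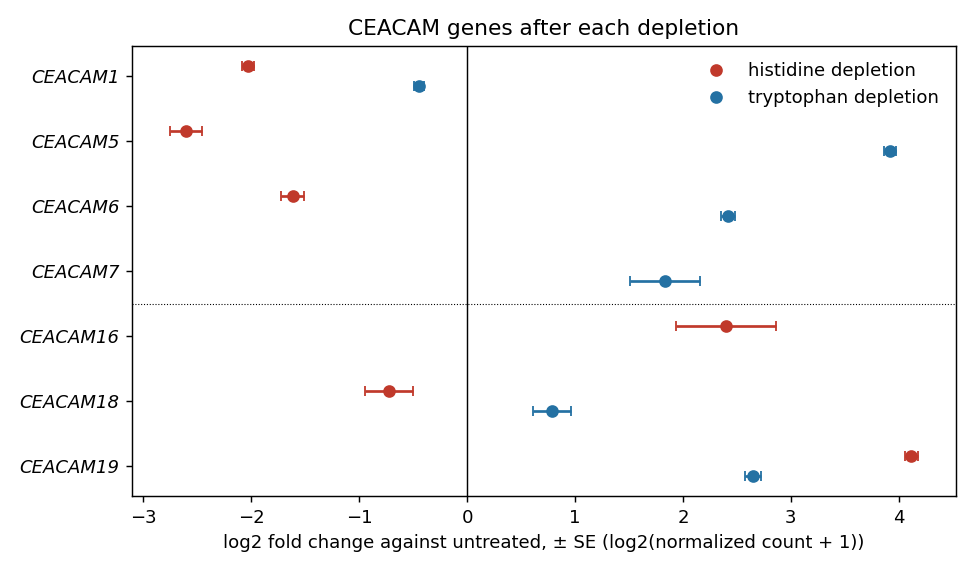
Log2 fold change against untreated cells (± SE) after histidine depletion (red) and tryptophan depletion (blue) for the CEACAM genes that passed the filter on low values in that comparison. CEACAM5 and CEACAM6 lie on opposite sides of 0 in the 2 depletions, CEACAM19 lies above 0 in both, and CEACAM1 lies below 0 in both.

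Transcripts of the proteins that CEACAM1 and its relatives bind or signal through were mostly higher after histidine depletion. Of 25 such genes, 23 were tested after histidine depletion, and 18 rose and 3 fell, where 39.1% of all genes rose and 38.2% fell, with a median log2 fold change of 0.65 beside 0.01 over all genes tested in either depletion. HAVCR2, described below, entered these 23 only through its histidine-depleted libraries, so no test is read from it. After tryptophan depletion 9 rose and 9 fell of 22, where 36.1% of all genes rose and 34.8% fell, with a median of -0.03. CAV1, which encodes the caveolar protein caveolin-1, had 155.2 and 195.9 normalized counts in untreated cells, 2262 and 2316 without histidine and 67.2 and 73.3 without tryptophan. Its level thus rose by 3.72 (SE 0.0906, limma adjusted p = 5.1e-21) and fell by 1.31 (SE 0.162, limma adjusted p = 1.0e-12), against the direction of CEACAM5 in both cases. FLNA, the actin cross-linker filamin A that binds the CEACAM1 tail, rose by 2.17 and 0.90. ITGAV, an integrin subunit, rose by 1.64 and 0.55, and TNFRSF10B, a TRAIL receptor, rose by 1.01 and 1.02. PXN, the focal adhesion adaptor paxillin, rose by 0.44 after histidine depletion and fell by 1.10 after tryptophan depletion. INSR, the insulin receptor, whose internalization CEACAM1 is known to promote in the liver, fell by 1.70 after histidine depletion (limma adjusted p = 4.7e-14) and stood at -0.03 after tryptophan depletion.

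Among the effectors of the CEACAM1 tail, PTPN6, which encodes SHP-1, rose by 0.18 after tryptophan depletion (limma adjusted p = 0.0022) and stood at 0.03 after histidine depletion. The PTPN6 call was lost without the first tryptophan-depleted library (0.15, adjusted p = 0.10) and in limma without the trend (adjusted p = 0.064), and its adjusted p ranged from 9.0e-05 to 0.10 over 14 alternatives. PTPN11, which encodes SHP-2, rose by 0.61 after histidine depletion (limma adjusted p = 1.8e-10) and stood at -0.10 after tryptophan depletion (limma adjusted p = 0.065). The latter was called lower without the first untreated library (-0.14, adjusted p = 3.1e-05), with DESeq2, with edgeR, after quantile normalization and with a replicate block, and its adjusted p ranged from 3.1e-05 to 0.54 over 14 alternatives. SRC, a kinase of the same motifs, fell by 0.79 after histidine depletion and rose by 0.38 after tryptophan depletion. HAVCR2, which encodes TIM-3, a reported ligand of CEACAM1 on T cells, had 0 and 4 reads in untreated cells, 21 and 22 without histidine and 1 and 3 without tryptophan. HAVCR2 passed the filter after histidine depletion only through those libraries, so no test is read from it. These 4 genes were singled out after their values were seen.

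The enzymes that build the GPI anchor and attach it to CEACAM5, CEACAM6 and CEACAM7 moved in both directions. Of 31 genes, 29 were tested, and 10 rose and 16 fell after histidine depletion, with a median log2 fold change of -0.32 (39.1% and 38.2% of all genes). After tryptophan depletion 7 rose and 14 fell, with a median of -0.07 (36.1% and 34.8% of all genes). PIGA, the catalytic subunit of the first step, rose by 1.56 (SE 0.0679, limma adjusted p = 2.8e-16) and 0.46 (SE 0.0733, limma adjusted p = 1.1e-08). PIGQ, a subunit of the same complex, fell by 1.31 after histidine depletion (limma adjusted p = 4.6e-15). PIGO, which adds the ethanolamine phosphate that joins the anchor to the protein, fell by 1.17 after histidine depletion and stood at 0.06 after tryptophan depletion. PIGZ, which adds a further mannose, fell by 2.18 and 1.02.

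Transcription factors known to act on CEACAM promoters were also mixed. All 19 genes were tested against untreated cells, and 9 rose and 8 fell after histidine depletion (median 0.06), while 9 rose and 6 fell after tryptophan depletion (median 0.09). Over all genes 39.1% rose and 38.2% fell without histidine, and 36.1% rose and 34.8% fell without tryptophan. KLF4, a zinc finger factor of differentiated colonocytes, had 676.6 and 692.3 normalized counts in untreated cells, 5424 and 5270 without histidine and 2745 and 2743 without tryptophan. It rose by 2.97 (SE 0.0562, limma adjusted p = 5.3e-23) and 1.99 (SE 0.0582, limma adjusted p = 2.3e-67). HNF4A, a nuclear receptor of the intestinal epithelium, fell by 2.76 (SE 0.0575, limma adjusted p = 2.9e-22) and 1.33 (SE 0.0475, limma adjusted p = 3.4e-57). RELA, a subunit of NF-kB, rose by 2.14 and 0.43, and IRF1, an interferon-induced activator of CEACAM1, rose by 1.90 and 0.46. These 4 factors, the ones with the largest changes at this level, each moved the same way in both depletions.

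The E-box binding factors changed less. USF2 had 6212 and 6851 normalized counts in untreated cells, 3547 and 3951 without histidine and 7124 and 6883 without tryptophan. It fell by 0.79 after histidine depletion (SE 0.0580, limma adjusted p = 7.0e-12), and its 0.09 after tryptophan depletion did not pass the threshold (limma adjusted p = 0.065), although it did without the second untreated library (0.17, adjusted p = 1.4e-05), with edgeR and with a replicate block. The adjusted p of USF2 after tryptophan depletion ranged from 1.4e-05 to 0.57 over 14 alternatives. USF1 fell by 0.18 after histidine depletion (limma adjusted p = 0.0057), a call lost without the first histidine-depleted library (-0.15, adjusted p = 0.098) and in limma without the trend, and its adjusted p there ranged from 0.0013 to 0.098. SP1 rose by 0.39 after tryptophan depletion and stood at 0.06 after histidine depletion (limma adjusted p = 0.31), where quantile normalization turned it to -0.21 and called it lower (adjusted p = 0.00011), with an adjusted p from 0.00011 to 0.69 over 14 alternatives. The 3 factors were singled out after their values were seen, and their part in the CEACAM levels was not tested.

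CEACAM1 is made as isoforms with a long or a short cytoplasmic tail according to whether an exon is included, and the tables give 1 value per gene, so the isoforms were not separated here. All 7 regulators of this splicing event were tested. After histidine depletion 3 rose and 3 fell, and after tryptophan depletion 2 rose and 5 fell, with medians of -0.08 and -0.67. The shares of all genes were 39.1% higher and 38.2% lower without histidine, and 36.1% higher and 34.8% lower without tryptophan. HNRNPL rose by 1.43 after histidine depletion and fell by 0.78 after tryptophan depletion. ESRP1, an epithelial splicing factor, went the other way and fell by 1.23 (SE 0.0526, limma adjusted p = 1.9e-16) and rose by 1.00 (SE 0.0514, limma adjusted p = 4.6e-40). HNRNPA1 fell by 1.09 and 1.42, and SRSF1 fell by 1.02 and 0.67. ESRP1 was thus lowest without histidine and highest without tryptophan, with 8262 and 8862 against 40409 and 40950 normalized counts.

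Markers of absorptive colonocytes, the cells in which CEACAM5 and CEACAM7 are highest in the normal colon, were partly absent from the line. Of 23 genes, 2 were at 0 reads in every library and 13 were tested in each depletion. After histidine depletion 3 rose and 9 fell, with a median of -0.30, and after tryptophan depletion 7 rose and 4 fell, with a median of 0.43. The shares of all genes that rose and fell were 39.1% and 38.2% in the former comparison and 36.1% and 34.8% in the latter. The counts that fell depend on the processing. CDHR5 (-0.30) lost its histidine call in limma without the trend (adjusted p = 0.16). Quantile normalization also lost it (-0.16, limma adjusted p = 0.14). Without the first histidine-depleted library CDHR5 stood at -0.12. Outside the rule for named genes, VIL1 lost its histidine call in limma without the trend (adjusted p = 0.16). ANPEP lost its tryptophan call with DESeq2 (adjusted p = 0.23). In the direct comparison 1 was higher and 8 were lower without histidine among 12 tested, beside 38.7% and 38.0% of all genes. The count of higher genes was 2 without the first histidine-depleted or the second tryptophan-depleted library. CDHR5, a brush border protocadherin, had 1067 and 1171 normalized counts in untreated cells, 793.3 and 1025 without histidine and 6455 and 6453 without tryptophan. It rose by 2.52 after tryptophan depletion (SE 0.0510, limma adjusted p = 6.0e-87), as did its partner CDHR2 by 2.48 (SE 0.208, limma adjusted p = 3.5e-22). KRT20, an intermediate filament of differentiated colonocytes, rose in both depletions, by 1.74 and 2.38, and SLC26A2, a sulfate transporter, fell in both, by 0.68 and 1.46.

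Other adhesion molecules of the immunoglobulin type moved in both directions. Of 28 genes, 20 were tested after histidine depletion, where 8 rose and 10 fell (median -0.18). Of 19 tested after tryptophan depletion, 6 rose and 8 fell (median -0.06). Of all genes tested, 39.1% rose and 38.2% fell after histidine depletion, and 36.1% rose and 34.8% fell after tryptophan depletion. The count that rose after tryptophan depletion depends on the processing. F11R and NECTIN2 lost their calls in limma without the trend (adjusted p = 0.11 and 0.19). ALCAM and VSIG10, not called here, were called higher by limma after quantile normalization (adjusted p = 0.019 and 0.034). ICAM1, a leukocyte ligand, rose by 2.54 (SE 0.0749, limma adjusted p = 1.7e-19) and 1.25 (SE 0.0854, limma adjusted p = 8.6e-29). JAM3, a junctional adhesion molecule, fell by 2.13 and 2.37, ESAM rose by 1.65 after histidine depletion, and NECTIN1 fell by 1.83 and 0.38. Outside the rule for named genes, and singled out after their values were seen, NECTIN4 and CADM4 were lower without histidine and higher without tryptophan. NECTIN4 fell by 1.01 and rose by 1.02 (limma adjusted p = 2.9e-11 and 1.2e-33), and CADM4 fell by 0.67 and rose by 0.51 (limma adjusted p = 3.3e-06 and 3.4e-08).

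**Figure D4:**
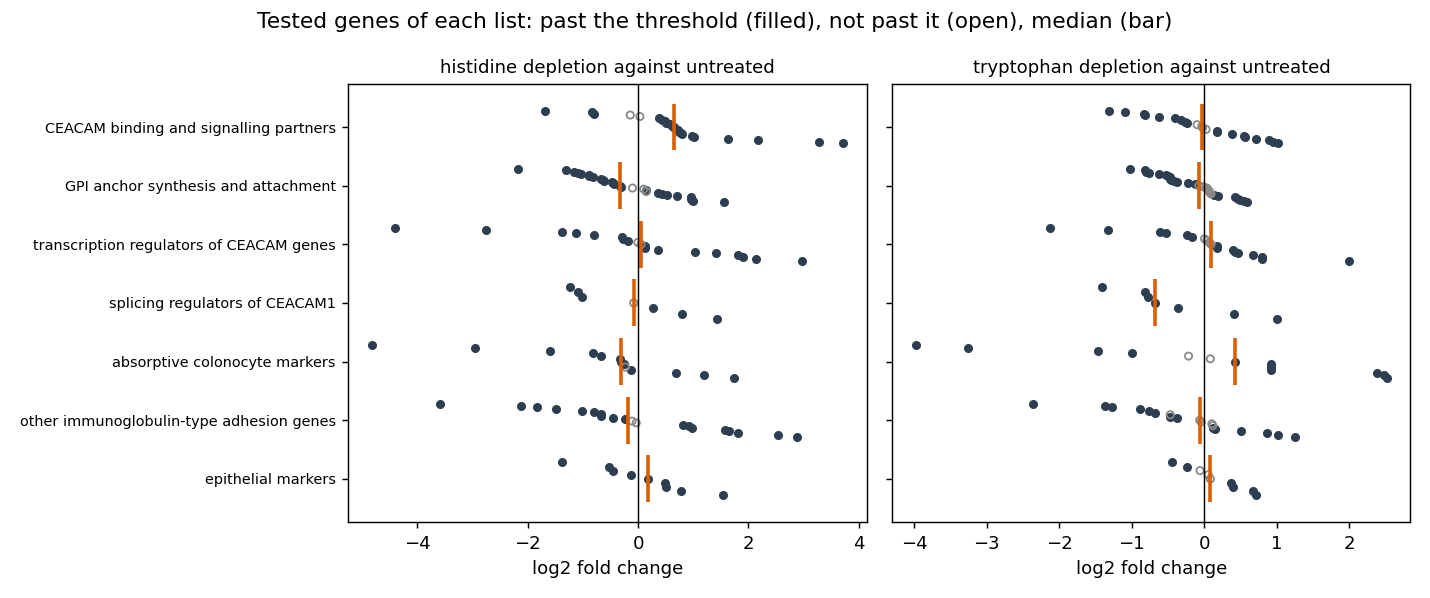
Log2 fold change of each tested gene of 7 lists, after histidine depletion (left) and tryptophan depletion (right). Filled points passed the threshold, open points did not, and the bar is the median of the list, such as 0.65 and -0.03 for binding and signalling partners.

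Markers of cells that might also carry CEACAM transcripts were looked at in the same libraries. All 10 granulocyte markers had a mean under 10, 4 of them were at 0 reads in every library, and their summed level was 9.84 to 12.9 normalized counts in untreated cells, 9.16 to 9.94 without histidine and 9.16 to 9.60 without tryptophan. Of 9 leukocyte markers, 3 (MS4A1, TYROBP and KIT) were at 0 reads throughout and PTPRC, the general leukocyte antigen, was near 0. The summed leukocyte level of 65000 to 69642 in untreated cells, 12626 to 14667 without histidine and 38498 to 38507 without tryptophan was almost all LYZ, which encodes lysozyme and is also made by intestinal epithelial cells. LYZ fell by 2.31 and 0.82, and CD14 fell by 0.96 after histidine depletion and rose by 1.73 after tryptophan depletion. The other 2 that were tested, CD79A and ITGAM, had group means of at most 99.8. ITGAM rose by 0.50 after histidine depletion (limma adjusted p = 0.014), a call kept in 10 of 14 alternatives but lost with DESeq2 (0.49, adjusted p = 0.13). Of the 4 tested, 1 rose and 2 fell in each depletion, beside 39.1% and 38.2%, and 36.1% and 34.8%, of all genes. Fibroblast and endothelial markers summed to 114.4 to 129.0, 81.3 to 91.6 and 84.3 to 95.2, and 3 of 8 were tested after histidine depletion and 2 after tryptophan depletion, with COL1A2 at 0 reads throughout. Among the 9 epithelial markers 5 rose and 4 fell after histidine depletion, and 4 rose and 2 fell after tryptophan depletion. Without the second tryptophan-depleted library the latter counts were 2 and 1, as KRT18 (0.39, limma adjusted p = 0.052), KRT8 and CDX2 lost their calls. The counts with all libraries stood beside 39.1% and 38.2%, and 36.1% and 34.8%, of all genes. The rise of EPCAM after histidine depletion (0.18) was not called in limma without the trend (adjusted p = 0.065). Quantile normalization turned it to -0.08, where limma called it lower (adjusted p = 0.023). KRT19 rose by 1.55 and 0.67 and CDH1 by 0.49 and 0.71. After histidine depletion KRT8 rose by 0.78, while CDX2, an intestinal transcription factor, fell by 1.37. After tryptophan depletion KRT8 stood at 0.36, past the threshold with all libraries but not without the first (0.37, limma adjusted p = 0.13) or the second tryptophan-depleted library (0.36, limma adjusted p = 0.15), with an adjusted p from 3.6e-50 to 0.15 over 14 alternatives. CDX2 stood at -0.24, past the threshold in 10 of 14 alternatives but not without the second tryptophan-depleted library (-0.14, limma adjusted p = 0.28), with an adjusted p over them from 0.0067 to 0.28.

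For each CEACAM gene, the protein-coding genes with the most similar pattern over the 6 libraries were sought among 11410 genes whose mean reached 100 in the highest condition. The measure was the Euclidean distance between log2 values centred on the untreated mean, in which 0 is an identical pattern, and it describes these 6 libraries only. CEACAM1 was closest to ARSL at a distance of 0.145, SH3TC2 at 0.153 and AMBP at 0.157. ARSL had 1531 and 1557 normalized counts in untreated cells, 359.6 and 426.3 without histidine and 1235 and 1156 without tryptophan, a pattern that tracked CEACAM1 closely. CEACAM5 was closest to MUC5AC, the gastric gel-forming mucin, at 0.707, to ITPKA at 0.958 and to UNC5B, a netrin receptor, at 1.00. MUC5AC had 2279 and 2441 normalized counts in untreated cells, 451.7 and 434.5 without histidine and 30848 and 28098 without tryptophan.

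CEACAM6 was closest to ALDH3A1, an aldehyde dehydrogenase, at 0.506, to CCPG1, an endoplasmic reticulum autophagy receptor, at 0.578 and to PLIN4, a lipid droplet protein, at 0.588. ALDH3A1 had 896.3 and 866.3 normalized counts in untreated cells, 235.8 and 241.1 without histidine and 5772 and 5465 without tryptophan, and it was the only one of the 12 genes that was also among the 3 closest by Pearson correlation. CEACAM7 was closest to OPLAH at 0.752, KCP at 0.757 and GPD1 at 0.760, although the distances of CEACAM7 rest on its few reads. The genes nearest to CEACAM5, CEACAM6 and CEACAM7 were thus all lower without histidine and higher without tryptophan, as the measure requires.

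**Figure D5:**
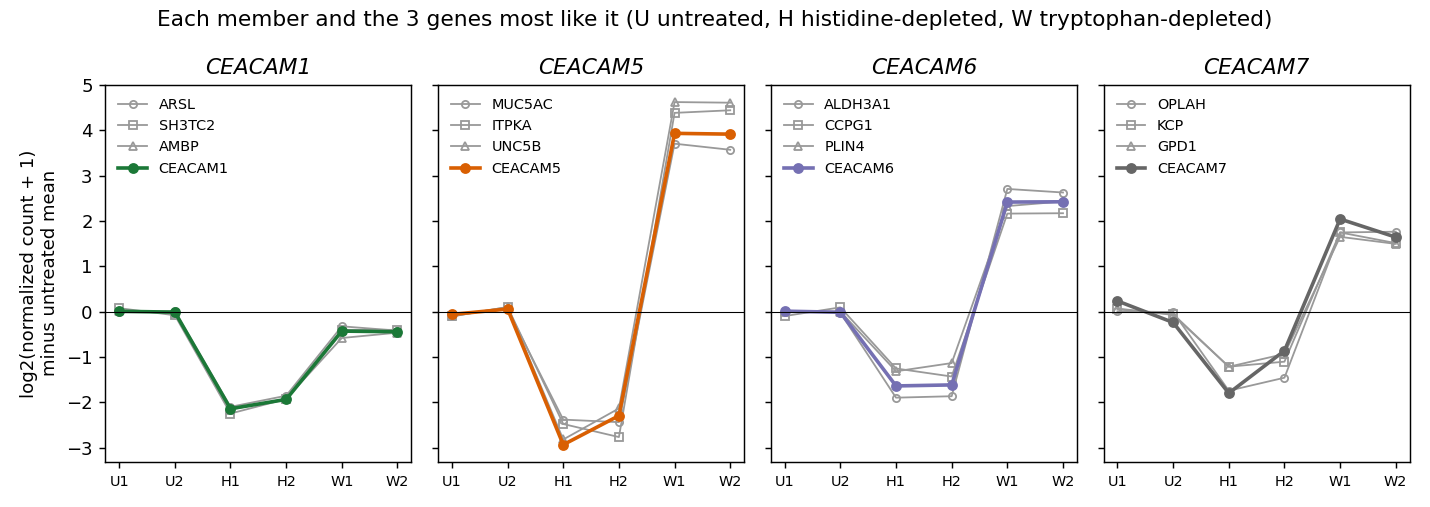
Log2(normalized count + 1) minus the untreated mean in each of the 6 libraries, for each CEACAM gene (thick line) and the 3 genes closest to it (thin lines). The 3 genes near CEACAM1 lie within a distance of 0.157 of it, and those near CEACAM5 reach 1.00.

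Genes that surround the CEACAM loci moved in both directions. Within 250 kb of CEACAM5, CEACAM6 or CEACAM7, 12 other genes had a mean of at least 10, and 3 rose and 5 fell after histidine depletion, while 2 rose and 4 fell after tryptophan depletion. Of all genes, 39.1% rose and 38.2% fell without histidine, and 36.1% rose and 34.8% fell without tryptophan. RPS19, a ribosomal protein gene 88044 bases from CEACAM6, fell by 1.66 after histidine depletion (SE 0.0655, limma adjusted p = 4.4e-17) and stood at 0.07 after tryptophan depletion. ERFL rose by 1.86 after tryptophan depletion (SE 0.151, limma adjusted p = 4.1e-23) and stood at -0.35 after histidine depletion (limma adjusted p = 0.15). GRIK5, a kainate receptor subunit, rose by 2.10 after histidine depletion (limma adjusted p = 1.7e-08). The others included B3GNT8, DMAC2, ARHGEF1, RABAC1, CD79A and 3 pseudogenes of TPM3, PLEKHA3 and HNRNPA1.

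Within 250 kb of CEACAM1 there were 9 such genes, of which 2 rose and 5 fell after histidine depletion and 2 rose and 6 fell after tryptophan depletion, where 39.1% and 38.2%, and 36.1% and 34.8%, of all genes did so. CXCL17, a mucosal chemokine 64358 bases away, had a mean of 44.4 ± 5.17 normalized counts in untreated cells, 1.98 ± 1.52 without histidine and 6.33 ± 1.41 without tryptophan (SD, n = 2 each). It stood lower by 4.02 (SE 0.458) and 2.64 (SE 0.371), values that rest on few reads in the depleted libraries. CXCL17 passed the filter only through its untreated libraries, so no test is read from it, although it is counted among the genes that fell. CNFN, which encodes cornifelin, fell by 1.91 and 1.85, and PAFAH1B3 fell by 1.09 and 1.37. LIPE, which encodes hormone-sensitive lipase, fell by 0.38 and 0.35. CIC rose by 0.33 after histidine depletion, TMEM145 rose by 1.03 after histidine depletion and fell by 0.82 after tryptophan depletion, and LIPE-AS1 rose by 0.76 and PRR19 fell by 0.61 after tryptophan depletion.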

How the data were processed

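Poly(A) RNA of HT29 cells was sequenced from 2 libraries per condition with a stranded kit and adapters carrying molecular identifiers. The authors aligned the reads with STAR 2.7.10a to GRCh38, counted them per gene with HTSeq 2.0.5 and deposited counts divided by DESeq2 size factors, a normalized signal in 1 table per depletion. How identifiers, strand and multiply mapping reads were treated is not given in the sources used here.

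Dividing each value by the step of its library recovered whole reads for 100% of values (tolerance 0.001). Of 60676 gene identifiers 60357 were matched to GENCODE release 44. Gene lengths were taken from that release, whereas the paper states an earlier GENCODE release for the counting of reads. Each depletion was compared with untreated cells within its table by limma 3.58.1 (R 4.3.3, mean-variance trend, two-sided) after adding a pseudocount of 1 and taking log2, keeping genes whose mean reached 10, with Benjamini-Hochberg adjustment over all genes and a threshold of 0.05. The depletions were compared in 1 fit of all 6 libraries after scaling the recovered reads together by median-of-ratios. The code was tested on simulated data.

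The CEACAM members and the gene lists were chosen with earlier results of these data known. The members have no test, and lists are given as counts and medians beside those of all genes. These counts include any gene that passed the filter through 1 condition only. The text names the members, other CEACAM genes with reads, up to 4 called genes per list that changed most and reached a mean of 100 in the higher group, partners with a log2 fold change of at least 1, the 3 genes most like each member, and neighbours within 250 kb; genes outside this rule are marked, and not every gene the rule selects is named here. The 12 lists were the other CEACAM genes, pregnancy-specific glycoproteins, binding and signalling partners, GPI anchor synthesis, transcription regulators, splicing regulators, absorptive colonocyte markers, other immunoglobulin-type adhesion genes and markers of epithelial cells, granulocytes, leukocytes, and fibroblasts and endothelium. Results were recomputed with edgeR 4.0.16 (TMM) and with DESeq2 1.42.0 on the recovered reads, after quantile normalization, in limma with its trend turned off, with pseudocounts of 0.5 or 8, with the filter removed or raised to a mean of 50, with a replicate block, with other libraries in the fit, leaving out each library, another gene length and Pearson correlation. With 2 libraries a group an exact permutation test cannot go below p = 0.333. Python 3.11.15, pandas 2.3.3, numpy 2.4.6, Biopython 1.88 and matplotlib 3.10.9 were used for tables, sequences and plots.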

Additional observations from a re-analysis of the deposited data

How the results depend on the processing

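No log2 fold change of CEACAM1, CEACAM5, CEACAM6 or CEACAM7 changed sign under any alternative in which it could be computed. With quantile normalization CEACAM1 stood at -2.15 after histidine and -0.51 after tryptophan depletion, and CEACAM6 at -1.47 and 2.48, and at -4.02 between the depletions. With a pseudocount of 8 CEACAM6 stood at -1.57, 2.40 and -3.98 and CEACAM7 at 1.41 after tryptophan depletion and -2.12 between the depletions. edgeR gave -4.08 for CEACAM6 between the depletions. The cause of these moves was not tested. CEACAM7 had no value with a mean of at least 50. After histidine depletion it stood at -1.32 without the filter and at -1.33 with other libraries in the fit, and had no value under the remaining alternatives.

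Leaving out 1 library at a time gave -2.92 to -2.29 for CEACAM5 after histidine depletion and -2.13 to -1.93 for CEACAM1, and CEACAM7 ranged from 1.60 to 2.07 after tryptophan depletion and from -3.64 to -2.71 between the depletions. The number of all genes called ranged from 13058 to 13733 after histidine depletion, 11025 to 12586 after tryptophan depletion and 12926 to 14205 between them when a library was left out, and from 11708 to 15016, 10777 to 12912 and 11811 to 15233 under the other alternatives. The libraries share replicate numbers but no stated source, and deviations of same-numbered libraries correlated at 0.05, 0.0074 and -0.041. With a replicate block 14432, 12766 and 14069 genes were called, against 14130, 12721 and 14006 without it.

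Of 880 counts of list genes under the alternatives, 851 stayed within 1.5 times and 29 did not. Among the other CEACAM genes 2 were called higher and 1 lower of 3 tested, both in the histidine comparison and between the depletions. CEACAM16 is 1 of the 2 called higher. It passed the filter in both comparisons only through its histidine-depleted libraries, so no test is read from it. Of all genes 39.1% and 38.2%, and 38.7% and 38.0%, were called. With a mean of at least 50, CEACAM19 was still called higher and CEACAM18 lower in both, and CEACAM16 was not tested. With the longest coding transcript as length the order of the 4 genes was kept in every condition, and CEACAM5 took 6.11%, 4.09% and 47.7% of the sum. With Pearson correlation 1 of the 12 most similar genes remained among the closest 3. The low counts of CEACAM7 and CEACAM16 limit both.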
